A study of Mus musculus with 5 samples.

Results

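The genes Sox4, Ggt1, Panx1, Map4k4, Golm1, Cd24a, Cd44 and Tspan8 are markers of liver progenitor cells or of hepatocellular carcinoma (HCC) that are not part of the usual bile duct set, and they were followed here through the livers of mice that lack the splicing factor gene Srsf2 in hepatocytes. These 8 genes were taken by name from 46095 deposited gene records. The first 5 were named in the study among markers that were up-regulated in tumors of the same libraries. The other 3 were added with results of these data known. The study also counted Cd44, one of these 3, among genes highly expressed in progenitor cells. The 8 genes were thus chosen by their FPKM in these 5 libraries, above all by the ratio of tumor to non-tumor FPKM. Their levels and ratios are given as a description.

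RNA from 5 C57BL/6 liver samples was sequenced, with 1 library for each condition. The tumor section and the non-tumor section came from a 12-month-old (12M) mutant, and their sample codes share the animal number 24. The 12M Srsf2f/f liver carries floxed Srsf2 alleles without Cre and is labelled wild type. The 2-month-old (2M) HKO liver is from a mouse in which Alb-Cre, active in hepatocytes, deletes the floxed Srsf2 alleles, and it was set against a 2M Srsf2f/f liver. The genotype label of the HKO and non-tumor samples reads HKO8, the tumor has no genotype label, and sex is not given in the labels used here. Sample codes of the 12M group read M13, but titles and age labels give 12 months, which was used. In bulk liver, fewer cells of a type and less RNA per cell cannot be told apart.

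Hepatic progenitor cells, also called oval cells in rodents, lie near the bile ducts and expand when hepatocytes are damaged and cannot replace themselves. They share keratins and other proteins with bile duct cells, and also carry surface proteins such as Cd24 and Cd44 that leukocytes use as well. Several genes of fetal liver and of progenitors are expressed again in liver tumors, among them the glutathione-cleaving enzyme Ggt1, which was long used to stain early lesions in rat liver.

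The values are FPKM, the number of sequenced fragments relative to the length of the gene and to the depth of the library, so that genes can be compared. Between 34969834 and 36104176 fragments per library were worked back from them. Ratios were taken as log2 of FPKM with 0.1 added, and a call of higher or lower needed a log2 ratio above 1 or below -1 together with a level over 5 FPKM in either library. There were no replicates, so there is no test and no p-value, and the intervals are 95% exact intervals that cover counting error only. Srsf2 itself had 15.6 FPKM in the tumor and 17.6 in the non-tumor section, against 15.7 in the 12M Srsf2f/f liver, and 22.7 in the 2M HKO liver, against 14.6 in the 2M Srsf2f/f liver. These values include reads from cells other than hepatocytes and do not check the deletion. The study reported that Srsf2 protein returned in mutant livers of the ages sequenced here, with earlier splicing changes back to the control pattern. The mutant livers are thus not read as free of Srsf2 protein. The summed level of 10 hepatocyte genes was 42800 FPKM in the tumor and 60000 in the non-tumor section, against 59600 in the 12M Srsf2f/f liver. It was 47900 in the 2M HKO liver, against 57600 in the 2M Srsf2f/f liver, so that every library carried hepatocyte RNA. Alb alone gave 28800 of the 42800 FPKM in the tumor and 35900 of the 60000 in the non-tumor section. Of the 10 genes, 5 were called lower and 0 higher in the tumor than in the non-tumor section.

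The stretches before the start sites are shown first for 3 of the genes, because the genes differ in kind there. RefSeq (GRCm38.p6) gave a start for 6 of the 8, namely Sox4, Ggt1, Panx1, Golm1, Cd44 and Tspan8. Each of the following lines holds the 250 bases upstream of the start, read 5′ to 3′ on the strand of the gene, with matches to the motifs listed afterwards in capitals. The Tspan8 window is chr10:115817034-115817283 on the plus strand. The Ggt1 window before the first of its 4 starts is chr10:75563882-75564131 on the plus strand, and the Sox4 window is chr13:28953700-28953949 on the minus strand. The Tspan8 window lies inside the deposited Tspan8 record, which starts at 115816817, and 13 of its bases are in a GENCODE exon. The Sox4 window holds 14 such bases and this Ggt1 window 0. The end of the Ggt1 window falls in the deposited Ggt1 record, which starts at 75564114. In the windows not printed, at most 47 bases were in such an exon.

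Tspan8: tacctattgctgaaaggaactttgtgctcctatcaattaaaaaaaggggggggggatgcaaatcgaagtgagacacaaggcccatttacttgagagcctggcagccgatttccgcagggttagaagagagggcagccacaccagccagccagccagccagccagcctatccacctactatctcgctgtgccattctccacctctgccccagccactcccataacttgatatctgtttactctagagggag

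Ggt1: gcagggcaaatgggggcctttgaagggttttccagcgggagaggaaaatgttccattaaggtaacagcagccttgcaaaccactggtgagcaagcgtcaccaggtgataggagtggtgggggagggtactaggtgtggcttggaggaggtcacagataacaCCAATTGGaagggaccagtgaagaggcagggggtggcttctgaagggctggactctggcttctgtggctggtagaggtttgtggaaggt

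Sox4: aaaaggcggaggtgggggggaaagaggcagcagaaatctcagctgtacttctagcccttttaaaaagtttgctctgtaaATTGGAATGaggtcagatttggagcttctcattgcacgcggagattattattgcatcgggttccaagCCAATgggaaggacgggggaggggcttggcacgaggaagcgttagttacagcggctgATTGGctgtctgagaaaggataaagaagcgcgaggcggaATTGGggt

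The Sox4 window was rich in CpG, with an observed over expected CpG ratio of 0.801, and those of Panx1 and Golm1 stood at 0.767 and 0.755. Tspan8 and Cd44 had ratios of 0.235 and 0.257, and the 4 windows of Ggt1 had ratios from 0.128 to 0.435, whereas the median of all 32851 RefSeq promoters was 0.373. Motifs were searched on both strands in the same 250 bases. The TATA box (TATAAA) is found in 12.4% of all promoters, the CCAAT box (CCAAT) in 33.8%, the GC box (GGGCGG) in 32.7% and the AP-1 site (TGACTCA) in 4.46%. The TEAD site (GGAATG) is found in 12.6%, the HNF1 site (GTTAAT) in 6.43%, the TCF/LEF site (ATCAAAG) in 3.21% and the HNF4 site (CAAAGTCCA) in 0.384%. Sox4 had 4 CCAAT boxes and 1 TEAD site, which shares bases with one of them, and the first Ggt1 window had CCAAT on both strands. Of the other 3 Ggt1 windows, 1 had a CCAAT box, a GC box and a TCF/LEF site, 1 had a GC box and 1 had a TATA box. Golm1 had 4 GC boxes, 1 CCAAT box and 1 TATA box, Panx1 had 1 CCAAT box, and no match was found in these windows of Tspan8 and Cd44. These matches describe letters only and say nothing of which factor binds.

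Tspan8 had the highest level of the 8 genes in the tumor. It encodes a tetraspanin, a membrane protein of gut and other epithelia that organizes integrins and other partners at the cell surface, and lies on chromosome 10 from 115816817 to 115849893. Tspan8 reached 69.5 FPKM in the tumor and 2.64 in the non-tumor section, against 0.636 in the 12M Srsf2f/f liver, while the 2M HKO liver had 5.0 FPKM, against 0.338 in the 2M Srsf2f/f liver. The tumor stood far above every other library, 13.9 times the 2M HKO liver (interval 12.3 to 15.8), and the controls were lowest. The plain ratio of tumor to the non-tumor section was 26.3 (22.2 to 31.3), and that of tumor to the 12M Srsf2f/f liver was 109 (78.1 to 158).

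Ggt1 was close to absent outside the tumor. It encodes gamma-glutamyltransferase, the cell surface enzyme that starts the breakdown of extracellular glutathione, and lies on chromosome 10 from 75564114 to 75586192. Ggt1 reached 5.44 FPKM in the tumor and 0 in the non-tumor section, against 0.0635 in the 12M Srsf2f/f liver, while the 2M HKO liver had 0.0865 FPKM, against 0 in the 2M Srsf2f/f liver. In fragments this was 440 in the tumor and 0 in the non-tumor section, against 5 in the 12M Srsf2f/f liver, and 7 in the 2M HKO liver, against 0 in the 2M Srsf2f/f liver. With a floor of 3 fragments in place of the count of 0, the ratio of tumor to the non-tumor section was 143 for Ggt1. This ratio has no counting interval. Among the other 4 libraries, those next to each other in level could not be ordered at this depth, as each such pair had an interval that held a ratio of 1.

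Sox4 was highest in the tumor, and its level differed between all 5 libraries. It encodes a transcription factor of the SOX family that is active in embryonic progenitors, and lies on chromosome 13 from 28950716 to 28953682. Sox4 reached 11.7 FPKM in the tumor and 2.75 in the non-tumor section, against 0.412 in the 12M Srsf2f/f liver, while the 2M HKO liver had 4.29 FPKM, against 0.145 in the 2M Srsf2f/f liver. The order was tumor, 2M HKO, non-tumor, 12M control and 2M control, and each neighbouring pair had an interval that left out a ratio of 1. The ratio of the 2M HKO liver to its control was 29.7 (17.8 to 53.5), the largest of the 7 genes with a plain ratio at 2M, although the level of 4.29 FPKM lay just below the minimum for a call. Between the controls the ratio of 12M to 2M was 2.85 (1.55 to 5.53), from 43 and 15 fragments.

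Panx1, Map4k4 and Golm1 followed one order, with tumor first, the 2M HKO liver next, then the non-tumor section and the controls last. Sox4 and Tspan8 shared this order. Panx1 encodes a large-pore membrane channel that releases ATP, and lies on chromosome 9 from 15005785 to 15045478. Panx1 reached 5.25 FPKM in the tumor and 0.696 in the non-tumor section, against 0.206 in the 12M Srsf2f/f liver, while the 2M HKO liver had 2.92 FPKM, against 0.179 in the 2M Srsf2f/f liver. The tumor thus stood just above the minimum of 5 FPKM, and only the controls could not be ordered (ratio of 12M to 2M 1.15, 0.51 to 2.62). Map4k4 encodes a kinase that acts upstream of Jnk, and lies on chromosome 1 from 39900912 to 40026310. Map4k4 reached 17.6 FPKM in the tumor and 3.49 in the non-tumor section, against 1.09 in the 12M Srsf2f/f liver, while the 2M HKO liver had 9.40 FPKM, against 1.43 in the 2M Srsf2f/f liver. All 5 libraries were separated for Map4k4, and the tumor was 1.87 times the 2M HKO liver (1.77 to 1.97).

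Golm1 encodes a membrane glycoprotein of the Golgi that in humans is measured in blood as a marker of HCC. The gene lies on chromosome 13 from 59634996 to 59675784. Golm1 reached 21.1 FPKM in the tumor and 3.81 in the non-tumor section, against 1.08 in the 12M Srsf2f/f liver, while the 2M HKO liver had 20.1 FPKM, against 1.47 in the 2M Srsf2f/f liver. The tumor and the 2M HKO liver were not separated at this depth, with a ratio of 1.05 (0.994 to 1.11), and both stood well above the other 3 libraries. Golm1 and Map4k4 were both lower in the 12M than in the 2M control, with ratios of 0.733 (0.585 to 0.917) and 0.762 (0.639 to 0.907), neither of which reached a call.

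Cd24a and Cd44 had another order, with the 2M HKO liver on top. Cd24a encodes a small sialoglycoprotein anchored in the membrane of progenitors and of leukocytes, and lies on chromosome 10 from 43579169 to 43584265. Cd24a reached 8.51 FPKM in the tumor and 9.25 in the non-tumor section, against 1.05 in the 12M Srsf2f/f liver, while the 2M HKO liver had 12.3 FPKM, against 0.898 in the 2M Srsf2f/f liver. All 3 mutant samples were high, and the tumor was not separated from the non-tumor section, with a ratio of 0.92 (0.818 to 1.03). Cd44 encodes the receptor for hyaluronan, a sugar chain of the matrix, and lies on chromosome 2 from 102811141 to 102901669. Cd44 reached 4.16 FPKM in the tumor and 3.0 in the non-tumor section, against 1.29 in the 12M Srsf2f/f liver, while the 2M HKO liver had 10.4 FPKM, against 1.23 in the 2M Srsf2f/f liver. The 2M HKO liver was 2.50 times the tumor (2.30 to 2.71), and the controls were not separated (ratio of 12M to 2M 1.05, 0.88 to 1.26).

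Cd44 RNA was also measured by qPCR in the study, and the primers are shown because they tell which Cd44 transcripts that assay would read. Both were found in 8 of 9 Cd44 transcripts of the GENCODE M21 annotation, inside the coding sequence of each of the 8, with a product of 162 bases.

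Cd44 forward: agactcatccaaggactccaggg

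Cd44 reverse: aggagagatgccaagatgatgagc

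**Figure D1:**
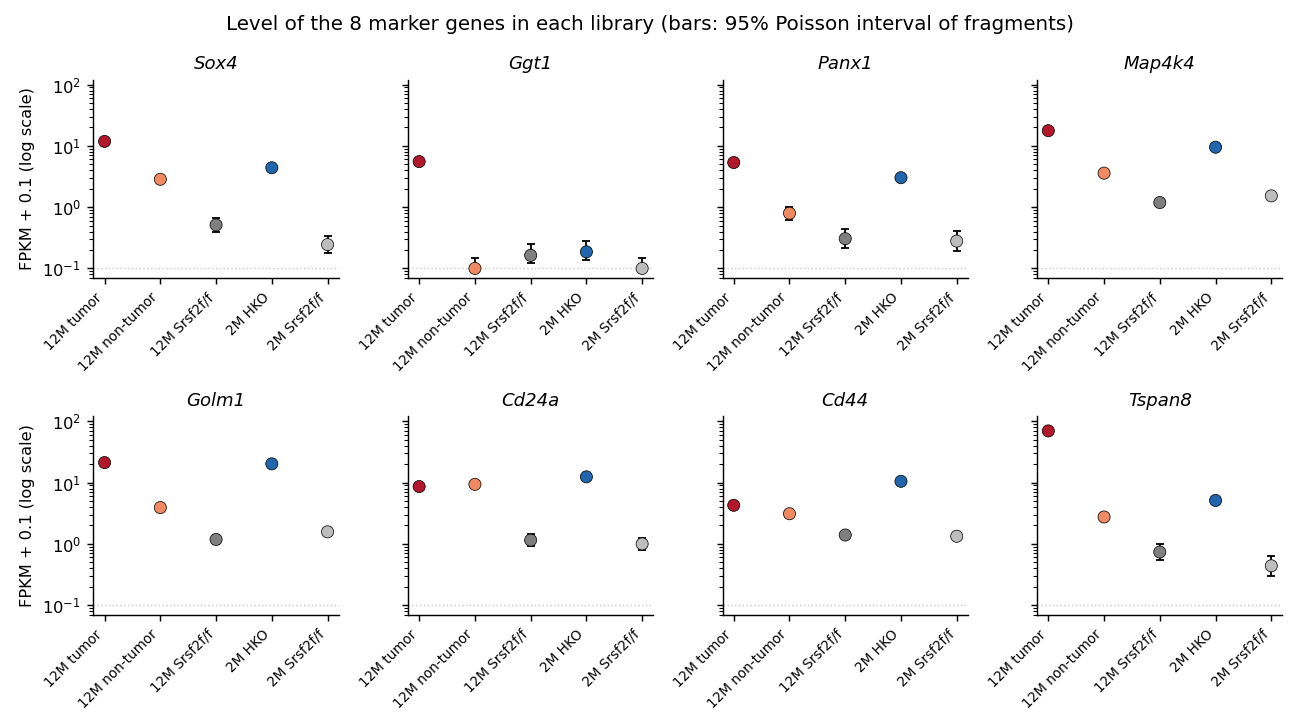
Levels of the 8 marker genes as FPKM with 0.1 added (log axis) in the 5 libraries, 1 panel per gene, with bars for the 95% exact Poisson interval of the fragments and a dotted line at a level of 0 FPKM. Tspan8 and Ggt1 stand out in the tumor at 69.5 and 5.44 FPKM, Golm1 is level between the tumor and the 2M HKO liver, and Cd24a and Cd44 are highest in the 2M HKO liver at 12.3 and 10.4 FPKM.

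Between the tumor and the non-tumor section, 6 of the 8 genes were called higher and 0 lower, while among all 7618 genes with over 5 FPKM in either library 17.7% were called higher and 8.43% lower, or 14.0% and 10.9% once the libraries were rescaled on 9099 expressed genes. Of the 8, 7 passed the minimum. The log2 ratios were 5.79 for Ggt1, 4.67 for Tspan8, 2.75 for Panx1, 2.44 for Golm1, 2.30 for Map4k4 and 2.05 for Sox4. Cd24a and Cd44 were not called and had log2 ratios of -0.12 and 0.46. Since the study named its markers from this comparison, nothing is read from the count. That rescaling was a shift of 0.16 on the log2 scale, and with it the tumor levels of Ggt1 and Panx1 dropped below 5 FPKM, so that both calls were lost.

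Against the 12M Srsf2f/f liver, 7 of the 8 genes were called higher in the tumor and 0 lower, beside 27.4% and 9.49% of all genes with over 5 FPKM in either, or 18.5% and 15.3% after rescaling. The log2 ratios ran from 1.61 for Cd44, which stayed below the minimum, to 6.56 for Tspan8, with a median of 4.15, whereas the median of all genes tested was 0.43. The scaling shift here was 0.35, and rescaling again took Ggt1 and Panx1 below the minimum. From over 1 FPKM, 8 of 8 were past a log2 ratio of 1 and 0 below -1, beside 31.4% and 9.12% of genes. This comparison shares the tumor library with the one before.

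In the non-tumor section, 7 of the 8 genes were detected, and Cd24a was the one whose level was not below that of the tumor beyond counting error. Against the 12M Srsf2f/f liver, only Cd24a of the 8 had over 5 FPKM, and it was called higher with a log2 ratio of 3.02, beside 6.14% of all genes tested, while 0 of the 8 were called lower, beside 1.73%. The plain ratio for Cd24a was 8.81 (6.83 to 11.5). From over 1 FPKM, 6 of the 8 were past a log2 ratio of 1, beside 10.6% of 11037 genes higher and 2.39% lower, with Sox4 at 2.48, Tspan8 at 1.90, Golm1 at 1.73, Map4k4 at 1.59 and Cd44 at 1.15. Rescaling by the shift of 0.19 placed Cd44 at 0.98. Panx1 had a log2 ratio of 1.38 at 0.696 FPKM, and Ggt1 had 0 fragments in the non-tumor section, against 5 in the control.

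In the 2M HKO liver, 5 of the 8 genes were called higher than in the 2M Srsf2f/f liver and 0 lower, beside 19.2% and 6.98% of 7220 genes with over 5 FPKM in either, or 14.6% and 10.5% after rescaling. The log2 ratios were 3.68 for Golm1, 3.64 for Cd24a, 3.54 for Tspan8, 2.98 for Cd44 and 2.64 for Map4k4. Tspan8 lay just inside the minimum at 5.0 FPKM and lost its call after rescaling by the shift of 0.25. Sox4 lay just outside at 4.29 FPKM and Panx1 farther below at 2.92 FPKM, with log2 ratios of 4.17 and 3.44. From over 1 FPKM, 7 of the 8 were past a log2 ratio of 1, beside 25.8% of 11777 genes higher and 6.30% lower. Between the control livers of 12M and 2M, 0 of the 8 genes passed 5 FPKM and 0 were called, beside 2.39% of genes called higher and 2.09% lower among 6114, and from over 1 FPKM also 0, beside 3.56% and 2.78%. The log2 ratios lay between -0.41 for Golm1 and 1.07 for Sox4.

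**Figure D2:**
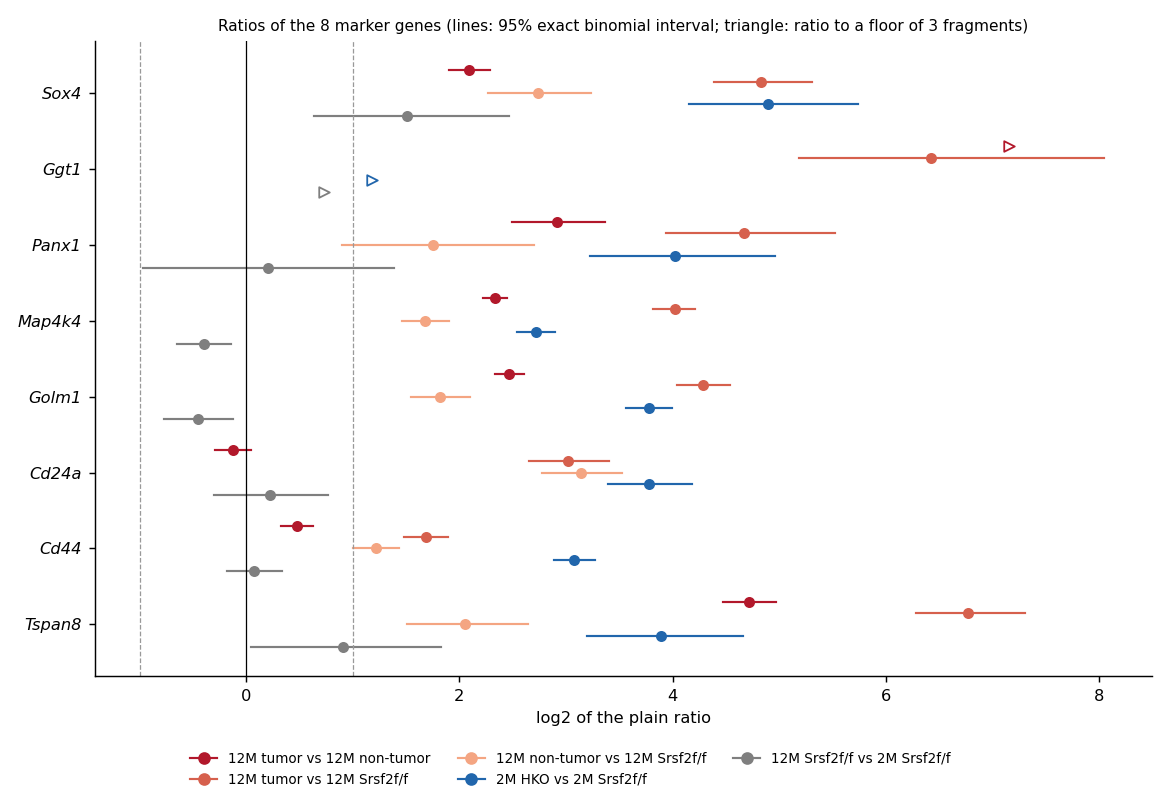
Plain ratios of the 8 marker genes on a log2 axis for the 5 comparisons, with lines for the 95% exact binomial interval of the fragments, dashed lines at log2 ratios of 1 and -1, and open triangles for the ratio to a floor of 3 fragments where the second library had 0 (Ggt1 is not drawn where the first had 0). Within each of the comparisons of the tumor, Tspan8 is the farthest right among points with an interval, at 26.3 against the non-tumor section and 109 against the 12M Srsf2f/f liver, and the tumor and non-tumor levels of Cd24a cannot be separated.

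Summed over the 8 genes, the level was 143 FPKM in the tumor and 25.6 in the non-tumor section, against 5.83 in the 12M Srsf2f/f liver, and 64.5 in the 2M HKO liver, against 5.69 in the 2M Srsf2f/f liver. Tspan8 made up 69.5 of the 143 FPKM in the tumor. Among the 8, the patterns most alike were those of Panx1 and Map4k4, with a distance of 0.66 between their centred log2 levels over the 5 libraries. Panx1 and Golm1 were 0.67 apart, Cd24a and Cd44 1.72, and the pair farthest apart was Ggt1 and Cd24a at 4.88.

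The genes with the most similar patterns were looked up among 7763 genes that passed 5 FPKM in some library, with the same distance over the 5 libraries. Cd44 was closest to Cenpa, the centromere histone gene, at 0.10, and to Inpp5d, a lipid phosphatase gene of blood cells, at 0.25. Map4k4 was closest to the cytochrome P450 gene Cyp4f16 (0.19) and the aldehyde dehydrogenase gene Aldh3b1 (0.29). Golm1 was closest to Pla2g7, which encodes a platelet-activating factor hydrolase (0.19), and to Calml4 (0.33). Panx1 was closest to Tes, a gene of focal adhesions (0.43), and to Gng2, a G protein subunit gene (0.52). Tspan8 had Sparcl1, a gene of the matrix, at 0.42 and the carbonyl reductase gene Cbr3 at 0.50. Sparcl1 reached 219 FPKM in the tumor and 11.2 in the non-tumor section, and Cbr3 reached 111 in the tumor and 2.72 in the non-tumor section. Cd24a had the survival gene Bcl2a1b at 0.49 and the tubulin gene Tuba8 at 0.60. Sox4 had Il1rn, which encodes the interleukin-1 receptor antagonist, at 0.52 and the membrane protein gene Plp2 at 0.56. Ggt1 had the hexokinase-like gene Hkdc1 at 0.64 and the kinase gene Styk1 at 0.70, and both had over 5 FPKM only in the tumor, where they stood at 6.30 and 5.48 FPKM, against 0.0488 and 0 in the non-tumor section.

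**Figure D3:**
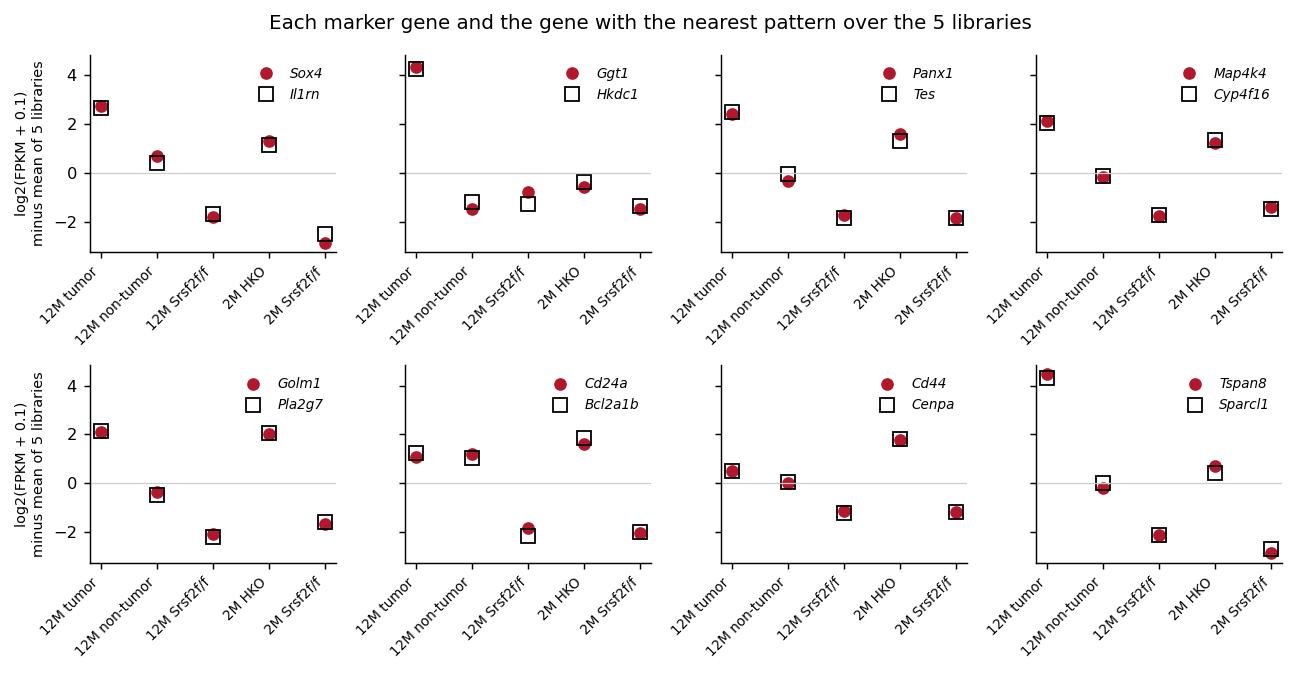
Log2 of FPKM with 0.1 added, minus the mean of the 5 libraries, for each marker gene (red points) and the 1 gene nearest to it (open squares). Points and squares coincide for Cd44 and Cenpa, at a distance of 0.10, and differ most for Ggt1 and Hkdc1, at 0.64.

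The relatives of these genes were counted from over 1 FPKM, where 20.2% of 12063 genes lay higher and 8.72% lower in tumor than non-tumor RNA, with a median log2 ratio of 0.26, or 16.4% and 10.8% after rescaling. Beside Sox4, 5 of 7 measured SOX genes were higher in the tumor and 1 was lower, with a median of 2.36. Sox18 and Sox7, genes of endothelial cells, had log2 ratios of 3.13 and 3.0, Sox9, a gene of bile ducts and progenitors, 3.02, and Sox13 1.59. At 2M, 1 of 5 measured SOX genes was higher in the HKO liver, or 0 after rescaling, and 0 were lower, with a median of 0.04 (-0.19 rescaled), while Sox4 had a log2 ratio of 4.17. Sox11, in the same subgroup as Sox4, was at 0 in every library, and Sox12 had 0.318 FPKM in the tumor and 1.22 in the non-tumor section.

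Around Ggt1, 3 of 13 measured genes of the glutathione cycle were higher in the tumor than in the non-tumor section and 0 lower, with a median of 0.31. They were Ggct at 2.11, Anpep at 1.24 and the glutathione synthetase gene Gss at 1.11. In the 2M HKO liver 4 of 13 were higher and 0 lower (3 lower after rescaling), beside 25.8% and 6.30% of all genes, with Ggct at 1.49 and Gss at 1.27 among them, while Ggt1 itself was near 0.

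Around Panx1, 5 of 11 measured genes of channels, connexins and ATP receptors were higher in the tumor and 2 lower. The gap junction gene Gja1 stood at 3.65 and the ATP receptor gene P2rx7 at 1.81, while Gjb1 and Gjb2, the main connexin genes of hepatocytes, stood at -1.61 and -1.47. The other pannexin genes, Panx2 and Panx3, were at 0 in every library. Around Map4k4, 2 of 7 genes of its kinase family and the Jnk cascade were higher, Jun at 1.18 and Map4k3 at 1.14. After rescaling Gss and Map4k3 no longer passed a log2 ratio of 1. Of 8 other Golgi membrane proteins 0 were higher or lower in the tumor (median 0.22), and in the 2M HKO liver this was also 0 of 8, while Golm1 had log2 ratios of 2.44 and 3.68.

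Ligands and partners of Cd44 and Cd24 were higher in the tumor than in the non-tumor section in 5 of 10 cases and lower in 0, with a median of 0.65, or in 4 and 2 cases after rescaling. Spp1, the osteopontin gene whose product binds Cd44, had a log2 ratio of 3.04, and Cd74, which pairs with Cd44 in a receptor, 2.78. In the 2M HKO liver 8 of 12 were higher and 0 lower, at a median of 1.98, beside 25.8% of all genes higher, 6.30% lower and a median of 0.35. Spp1 stood at 4.36 there, the P-selectin gene Selp at 3.27, the membrane protease gene Mmp14 at 2.96 and Msn, which ties Cd44 to the cytoskeleton, at 2.23. Of the tetraspanins beside Tspan8, 12 of 21 were higher in the tumor and 1 lower, with Tspan13 at 3.42, Tspan18 at 3.17 and Cd63 at 2.17, and none of these ratios reached that of Tspan8 at 4.67. In the 2M HKO liver 11 of 20 tetraspanins were higher and 1 lower, and there Cd63, a tetraspanin of lysosomes and exosomes, had a log2 ratio of 5.58, above Tspan8 at 3.54.

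**Figure D4:**
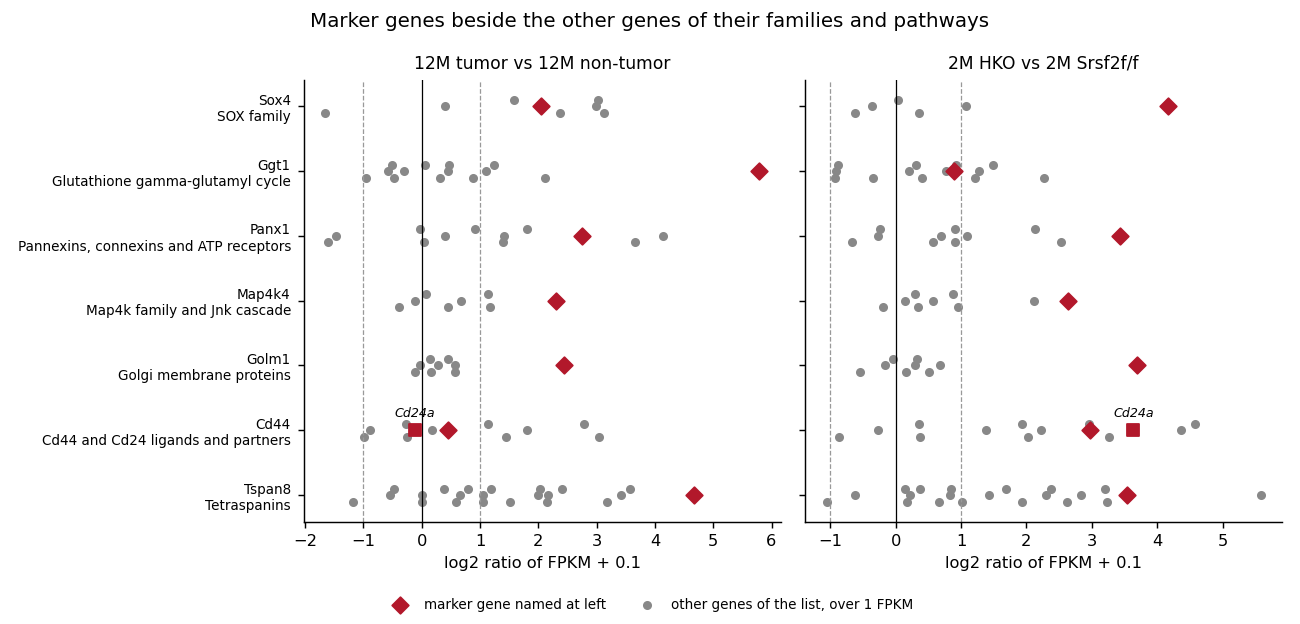
Log2 ratios of FPKM with 0.1 added for each marker gene (diamonds, and a square for Cd24a) and the other genes of its family or pathway over 1 FPKM (grey points), for tumor against the non-tumor section and for 2M HKO against 2M Srsf2f/f. Golm1 stands apart from its grey points in both panels at 2.44 and 3.68, Sox4 stands apart at 2M at 4.17, and Cd44 lies among its partners.

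Marker lists of other liver cell types differed between the libraries too, some in the direction of the 8 genes and some not, and their part in the ratios was not tested. The 12 biliary genes summed to 2080 FPKM in the tumor and 273 in the non-tumor section, against 28.4 in the 12M Srsf2f/f liver, and 417 in the 2M HKO liver, against 23.6 in the 2M Srsf2f/f liver, but Spp1 alone gave 2040 of the 2080 in the tumor. From over 1 FPKM, 4 of 7 biliary genes lay higher and 3 lower in the tumor than in the non-tumor section, and 8 of 9 were higher in the 2M HKO liver than in its control. Krt19 and Krt7, keratins of bile ducts, had 0.12 and 0.332 FPKM in the tumor and 4.61 and 5.77 in the non-tumor section, against 0.659 and 0.323 in the 12M Srsf2f/f liver. The chloride channel gene Cftr was at 0 in the tumor. The library with the top level of Sox4, Ggt1, Panx1, Map4k4, Golm1 and Tspan8 thus had both keratins below 1 FPKM.

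The 17 leukocyte genes summed to 348 FPKM in the tumor and 274 in the non-tumor section, against 96.1 in the 12M Srsf2f/f liver, and 1010 in the 2M HKO liver, against 103 in the 2M Srsf2f/f liver. Lyz2 alone gave 269 of the 348 FPKM in the tumor and 185 of the 274 in non-tumor tissue. It also gave 658 of the 1010 in the 2M HKO liver. The order of the tumor and non-tumor sums thus rests on Lyz2. From over 1 FPKM, 1 of 13 leukocyte genes was higher and 4 were lower in the tumor than in the non-tumor section. In the 2M HKO liver, 11 of 12 were higher than in its control. Cd24a and Cd44, which leukocytes also express, were the only genes of the 8 whose top level was in the 2M HKO liver. The sums of Kupffer cell, stellate cell and cell cycle genes were highest there too. The part of leukocytes in the levels of Cd24a and Cd44 was not tested. The 5 Kupffer cell genes summed to 0.536 FPKM in the tumor, with all 5 lower than in the non-tumor section and Timd4 at 0, to 121 in the non-tumor section, against 117 in the 12M Srsf2f/f liver, and to 681 in the 2M HKO liver, against 153 in the 2M Srsf2f/f liver. Endothelial genes summed to 277 FPKM in the tumor and 85.6 in the non-tumor section, against 99.1 in the 12M Srsf2f/f liver, and to 136 in the 2M HKO liver, against 98.5 in the 2M Srsf2f/f liver. Of the 9, 5 were higher and 3 lower in the tumor than in the non-tumor section. Pecam1 and Emcn had 82.0 and 44.0 FPKM in the tumor and 7.41 and 3.51 in the non-tumor section, whereas Clec4g and Stab2, genes of the sinusoidal endothelium, had 0.224 and 0.252 FPKM in the tumor and 18.3 and 3.95 in the non-tumor section. Cell cycle genes summed to 12.6 FPKM in the tumor and 5.27 in the non-tumor section, against 0.843 in the 12M Srsf2f/f liver, and to 58.1 in the 2M HKO liver, against 1.30 in the 2M Srsf2f/f liver. The 3 mutant samples had the same order for Cd44, but also for the leukocyte and stellate cell sums. The genes nearest to Cd44 were Cenpa and Inpp5d, and the part of any of these lists in its level was not tested. Stellate cell genes summed to 204 FPKM in the tumor and 200 in the non-tumor section, against 91.6 in the 12M Srsf2f/f liver, and to 330 in the 2M HKO liver, against 88.5 in the 2M Srsf2f/f liver. Behind the near equal sums of the 12M mutant samples, 5 of 9 were higher in the tumor than in the non-tumor section and 3 lower, or 2 and 3 after rescaling. Acta2, the smooth muscle actin gene of myofibroblasts, stood at 2.12 and the collagen gene Col1a1 at 1.19 on the log2 scale, Reln at -3.0 and Lrat, the retinol-esterifying enzyme gene of stellate cells, at -2.09. The proteoglycan gene Dcn made up most of the non-tumor sum, with 59.2 FPKM in the tumor and 127 in the non-tumor section. Red cell genes summed to 390 FPKM in the tumor and 162 in the non-tumor section, against 202 in the 12M Srsf2f/f liver, and to 213 in the 2M HKO liver, against 163 in the 2M Srsf2f/f liver.

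**Figure D5:**
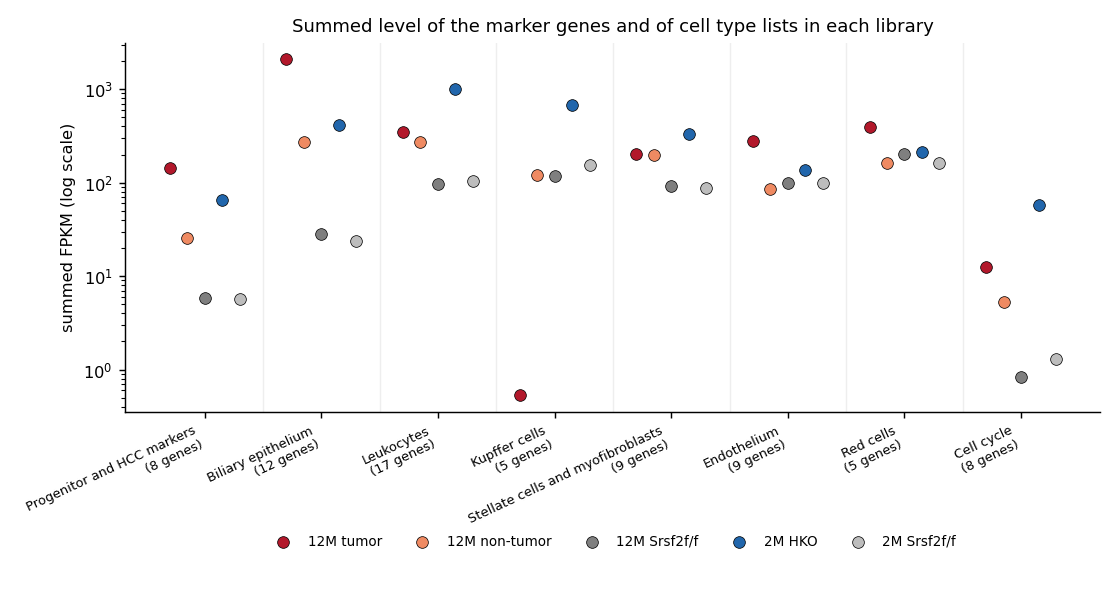
Summed FPKM (log axis) of the 8 marker genes and of the marker lists of liver cell types in the 5 libraries. The marker genes run from 143 FPKM in the tumor to 5.69 in the 2M Srsf2f/f liver, while the leukocyte and Kupffer cell lists are highest in the 2M HKO liver at 1010 and 681 FPKM.

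The chromosome of a gene was compared as well, since the median ratio differed between chromosomes in the tumor. Over 6596 expressed genes, the median of chromosome 13, which holds Sox4 and Golm1, lay 0.76 below the median of all genes on the log2 scale for tumor against the non-tumor section (distance -0.76). Chromosome 9 with Panx1 lay at -0.32, chromosome 10 with Ggt1, Cd24a and Tspan8 at -0.23, and chromosome 1 with Map4k4 at 0.25. Of the genes called higher in the tumor, Map4k4 lies on a chromosome whose median lay above that of all genes. Sox4, Golm1, Panx1, Ggt1 and Tspan8 lie on chromosomes whose median lay below it, as does Cd24a, which was not called. The part of the chromosome in these ratios was not tested. For the 2M HKO liver against its control the distances were -0.08 for chromosome 13, -0.03 for chromosome 9 and -0.04 for chromosome 1.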

How the data were processed

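Paired-end RNA libraries were made from livers of 5 conditions, 1 library each. The authors deposited FPKM for 46095 gene records with lengths and coordinates. The submitters' processing notes name Bowtie 0.12.2 and GRCm38, and the counting tool and annotation are not given in the sources used here. Within a library, FPKM times length moves in equal steps of 1 fragment, and 98.7% to 98.8% of nonzero values came out whole (tolerance 0.01), so fragments were worked back. Since 58.8% to 61.0% of counts from 2 to 21 are even, reads of a pair may be counted separately and intervals may be too narrow. Ratios used a pseudocount of 0.1 FPKM and the study's fold rule (log2 ratio past 1, over 5 FPKM in either library) without its EBSeq p-value, since there are no replicates. Genes in lists were counted from over 1 FPKM.

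The 8 genes and all gene lists were chosen with earlier results of these data known. Besides them, up to 4 called genes per list and comparison with the largest log2 ratios could be named, with the 2 genes nearest to each marker (predicted genes left out) and Srsf2. Single genes at 0 or of the same subgroup (Sox11, Sox12, Panx2, Panx3, Krt19, Cftr, Timd4) and Stab2, Lrat and Dcn were named after their values were seen. Of 176 list genes, 175 were used, and 1 was not analysed here. The listed gene length equals a GENCODE M21 transcript only for Cd24a, and Sox4 and Panx1 are listed at 2967 and 2075 bases where the longest transcripts have 4795 and 5732, so FPKM levels between genes depend on these lengths. Records that overlap Sox4 and Tspan8 had 0 FPKM. Intervals are Clopper-Pearson for ratios and exact Poisson for levels, at 95%. The scripts were tested on simulated data. Alternatives covered the pseudocount, the minimum, the scaling and the fold. Scripts ran in Python 3.11.15 with scipy 1.17.1, pandas 2.3.3, numpy 2.4.6 and, for plots, matplotlib 3.10.9.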

Additional observations from a re-analysis of the deposited data

How the results depend on the processing

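No paired analysis was possible because each group has 1 library, and no library could be left out. Of 160 ratios of the 8 genes under other pseudocounts and scalings, 160 kept their sign and 50 moved by more than their counting interval. Of 90 counts of called genes, 83 stayed within 1.5 times the reported count. A minimum of 10 FPKM left 4 genes higher in the tumor than in the 12M Srsf2f/f liver (7 reported), 3 in the 2M HKO liver against its control (5 reported) and 0 in non-tumor tissue against the 12M Srsf2f/f liver (1 reported). In that last comparison a minimum of 1 FPKM gave 6, no minimum gave 7 and TPM gave 6, since most of the genes lay under 5 FPKM there. With no minimum, 1 gene, Sox4, was called higher in the 12M than in the 2M Srsf2f/f liver (0 reported). With 1 library per group, differences between animals cannot be told apart from those between conditions, and with 7 fragments or fewer, as for Ggt1 outside the tumor, depth limits the order of the libraries.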
